A study of Homo sapiens with 4 samples.

Results

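The regions described here are stretches of accessible chromatin that lie deep inside protein-coding genes. Peaks of 4 ATAC-seq libraries were merged where they overlapped by 1 bp or more. A merged region was taken when it lay within the span of a protein-coding gene and more than 10000 bp from both ends of every protein-coding gene. This rule uses position alone, and it selected 16457 of 53572 merged regions, which are called deep intragenic regions below. Of these, 16262 lay within 1 gene span, 194 within 2 overlapping spans and 1 within 3.

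The study treated 786-O cells, an established clear cell renal cell carcinoma line without functional VHL, with either 5 µM ACSS2i or the vehicle DMSO for 24 h. ACSS2i is the labels' name for a compound directed at ACSS2, the enzyme that makes acetyl-CoA from acetate, and its structure is not given in the labels. Each group had 2 libraries, 4 in all, and the question was which accessible regions differ after ACSS2i. All libraries share the one cell line, and no label says that replicates were grown as separate cultures. The p-values therefore reflect the spread among these 4 libraries alone, which may be technical.

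ATAC-seq reads open chromatin through the Tn5 transposase, which inserts sequencing adapters where DNA is not covered by nucleosomes or other proteins. Accessible sites far from gene ends are for the most part enhancers, insulator sites or internal promoters, and introns of long genes hold many of them. Enhancers are bound by sequence-specific factors such as AP-1, TEAD and ETS family members, are flanked by acetylated histones, and can act on their host gene or on another gene. Internal promoters start shorter transcripts of the host gene or non-coding RNAs. In this bulk assay, a smaller number of cells with a site open and a smaller degree of opening in each cell cannot be told apart.

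A RefSeq table of annotated transcript starts on GRCh38.p14 covers the chromosomes of 15689 of the deep intragenic regions, and 773 of those held at least 1 start. The sequences of 7 such starts are shown, as the strongest of each pattern of presence among the starts ranked. Ranked starts had their shown sequence wholly inside the region and a gene symbol that does not begin with LOC. Among these, SH3BP4, PHACTR4 and PRKAG2 had the strongest regions with a protein-coding start in all 4 libraries. The non-coding UST-AS2, which lies inside UST, had the strongest with a non-coding start in all 4. MCC, RETREG1 and GNB5 had the strongest regions with a start in both DMSO libraries and no ACSS2i peak. Each sequence has 300 bases, 250 before and 50 after the start, is read 5′ to 3′ on the strand of the transcript, and lies wholly inside its region. The windows are SH3BP4 at chr2:234981124-234981423 (plus strand), PHACTR4 at chr1:28437900-28438199 (plus), PRKAG2 at chr7:151736214-151736513 (minus), UST-AS2 at chr6:149032612-149032911 (minus), MCC at chr5:113294889-113295188 (minus), RETREG1 at chr5:16508949-16509248 (minus) and GNB5 at chr15:52179642-52179941 (minus). Capitals mark matches on either strand to the letters TGANTCA of AP-1, GGAATG of TEAD, ACGTG of the hypoxia response element, GGGCGG of the GC box and CCGGAA of ETS factors. The sequences are RefSeq's.
SH3BP4: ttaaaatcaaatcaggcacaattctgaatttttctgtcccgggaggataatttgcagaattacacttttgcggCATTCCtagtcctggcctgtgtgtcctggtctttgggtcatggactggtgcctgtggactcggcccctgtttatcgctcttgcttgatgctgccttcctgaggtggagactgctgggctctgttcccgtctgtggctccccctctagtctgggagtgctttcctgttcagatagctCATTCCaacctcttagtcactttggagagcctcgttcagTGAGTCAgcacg
PHACTR4: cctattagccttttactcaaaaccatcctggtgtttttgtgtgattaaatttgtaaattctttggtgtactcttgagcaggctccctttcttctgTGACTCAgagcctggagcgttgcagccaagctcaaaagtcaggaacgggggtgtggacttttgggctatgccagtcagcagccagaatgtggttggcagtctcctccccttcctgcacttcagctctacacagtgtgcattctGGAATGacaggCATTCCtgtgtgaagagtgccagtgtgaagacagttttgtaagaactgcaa
PRKAG2: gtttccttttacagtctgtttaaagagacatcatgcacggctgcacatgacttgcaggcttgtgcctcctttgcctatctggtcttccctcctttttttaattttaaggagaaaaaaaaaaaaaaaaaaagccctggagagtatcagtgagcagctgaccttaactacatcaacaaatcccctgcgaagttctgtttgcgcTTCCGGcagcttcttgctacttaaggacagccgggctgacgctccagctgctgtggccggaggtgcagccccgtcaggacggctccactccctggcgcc
UST-AS2: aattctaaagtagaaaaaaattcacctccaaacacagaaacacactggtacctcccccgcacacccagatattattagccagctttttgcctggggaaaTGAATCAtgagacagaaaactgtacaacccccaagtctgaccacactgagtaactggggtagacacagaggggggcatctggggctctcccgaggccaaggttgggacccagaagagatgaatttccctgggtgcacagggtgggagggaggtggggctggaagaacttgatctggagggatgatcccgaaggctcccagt
MCC: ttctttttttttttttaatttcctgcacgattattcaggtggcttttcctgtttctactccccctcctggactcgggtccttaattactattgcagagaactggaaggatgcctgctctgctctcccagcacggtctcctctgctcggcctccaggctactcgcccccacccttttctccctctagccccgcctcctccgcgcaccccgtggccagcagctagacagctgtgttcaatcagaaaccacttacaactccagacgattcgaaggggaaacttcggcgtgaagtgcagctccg
RETREG1: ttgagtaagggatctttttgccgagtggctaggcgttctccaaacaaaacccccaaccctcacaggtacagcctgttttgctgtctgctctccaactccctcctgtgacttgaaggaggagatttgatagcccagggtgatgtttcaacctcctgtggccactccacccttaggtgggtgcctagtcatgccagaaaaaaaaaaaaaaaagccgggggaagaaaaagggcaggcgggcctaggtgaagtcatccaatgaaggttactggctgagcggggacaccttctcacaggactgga
GNB5: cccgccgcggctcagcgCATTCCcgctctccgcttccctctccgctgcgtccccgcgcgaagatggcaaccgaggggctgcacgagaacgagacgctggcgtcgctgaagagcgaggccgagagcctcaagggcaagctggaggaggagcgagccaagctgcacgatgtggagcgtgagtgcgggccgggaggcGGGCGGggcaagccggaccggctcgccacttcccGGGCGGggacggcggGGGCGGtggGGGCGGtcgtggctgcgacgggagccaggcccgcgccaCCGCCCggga

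SH3BP4, which encodes an endocytic adaptor, and PHACTR4, which encodes an actin and phosphatase regulator, each held 1 AP-1 match and 2 TEAD matches in these windows. PRKAG2, a regulatory subunit of the AMP-activated kinase, held 1 ETS match, and UST-AS2 held 1 AP-1 match. GNB5, a G protein beta subunit, held 5 GC boxes and 1 TEAD match in a window of 75% G and C. The windows of MCC and RETREG1, the second of which encodes a receptor for autophagy of the endoplasmic reticulum, held none of the 5 motifs, which says only that these letters are not in these windows. Fold enrichment of the strongest summit over local background, a value of the authors' peak caller within each library, was 6.67 and 9.45 in ACSS2i and 8.26 and 10.3 in DMSO at SH3BP4. It was 7.58 and 6.32 in ACSS2i against 9.27 and 14.9 in DMSO at PRKAG2, so the groups did not overlap there, as they did at SH3BP4. At MCC, listed in no ACSS2i library, it was 7.81 and 11.2 in DMSO.

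The whole lists set the scale for what follows. The ACSS2i lists held 16400 and 22044 peaks and the DMSO lists 34696 and 50294, so that peaks per library averaged 0.452 times the DMSO number in ACSS2i (exact permutation test, two-sided, p = 0.33, the smallest that 2 against 2 libraries can give). Read totals belong to the facts not given in the sources used here. Lists of unequal length and a difference in general peak calling cannot be told apart by counts of presence or absence. Counts are therefore also given at equal list length, where each library keeps its 16400 strongest peaks by −log10 q.

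Fewer deep intragenic regions carried a peak after ACSS2i. They numbered 3947 and 5652 in the ACSS2i libraries and 9590 and 15236 in the DMSO libraries. The means were 4799.5 ± 1206 in ACSS2i and 12413 ± 3992 in DMSO (SD, n = 2 each), a ratio of 0.387, with both ACSS2i libraries below both DMSO libraries (exact permutation p = 0.33). As a share of all regions in the library they made up 25.3% and 26.6% in ACSS2i and 28.3% and 30.6% in DMSO, a difference of -3.49 percentage points (exact permutation p = 0.33). At equal list length the share was 25.3% and 26.1% in ACSS2i and 25.7% and 24.4% in DMSO, a difference of 0.612 points in the other direction (exact permutation p = 0.67), and the groups overlapped. The lower share in the full ACSS2i lists was thus not present at equal list length.

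**Figure D1:**
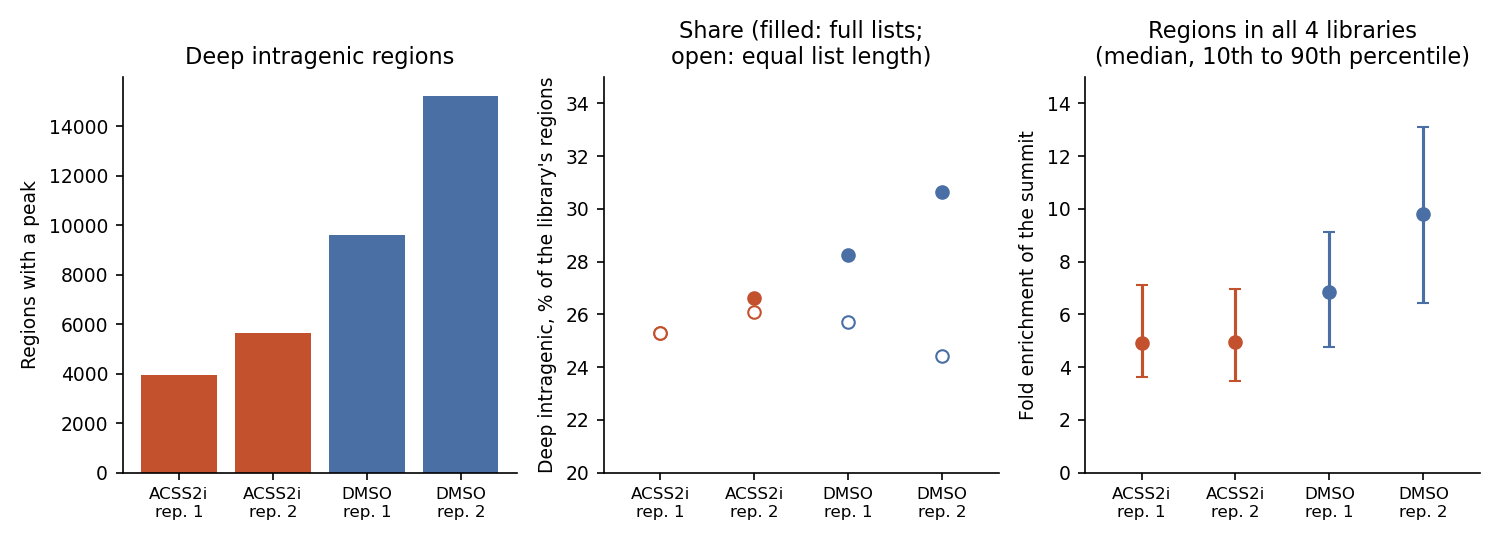
Deep intragenic regions in the 4 libraries, with ACSS2i in red and DMSO in blue: the number with a peak (left), their share of the library's regions in the full lists (filled) and at equal list length (open; the share axis starts at 20%), and the fold enrichment of regions present in all 4 libraries (right, median with 10th to 90th percentile). The counts run from 3947 to 15236, the open points lie between 24.4% and 26.1%, and the median folds are 4.92 and 4.97 in ACSS2i against 6.86 and 9.79 in DMSO.

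The patterns of presence were uneven. The commonest was a peak in DMSO replicate 2 alone, the longest list, with 6055 regions or 36.8%. The next were a peak in both DMSO libraries and no ACSS2i library (3300 regions) and a peak in all 4 libraries (3250 regions). In all, 7257 regions had a peak in a single library, and 10135 had none in ACSS2i.

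Both DMSO libraries listed 8793 deep intragenic regions, of which 3250 (37.0%) were listed in both ACSS2i libraries, 2243 in 1 of them and 3300 in neither. This last group, 37.5% (36.5 to 38.6% by the exact Clopper-Pearson interval at 95%, which covers counting error only), is called the absent share below. Over all regions of the series the absent share was 33.5% and the share with a peak in all 4 was 42.2%. When DMSO replicate 1 was left out the absent share became 61.5% and the share in all 4 became 21.3%. When ACSS2i replicate 2 was left out the absent share became 57.2%, and leaving out ACSS2i replicate 1 made the share in all 4 56.7%. At equal list length 233 of 3186 regions (7.31%) were absent from ACSS2i, beside 6.41% of all regions, and 75.2% were in all 4, beside 77% of all regions. At equal list length, then, most deep intragenic regions of both DMSO libraries were also called in both ACSS2i libraries. These were 2396 regions, out of 6184 with a peak in any library at that length. ACSS2i replicate 1 keeps its whole list there, weak peaks included.

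The opposite pattern was rare in the full lists. Among 424 deep intragenic regions listed in neither DMSO library, 2 were listed by both ACSS2i replicates, against 0.857% of all such regions in the series. Without ACSS2i replicate 1, 346 regions had an ACSS2i peak and no DMSO peak, without ACSS2i replicate 2 it was 81, without DMSO replicate 2 it was 26 and without DMSO replicate 1 it was 4. At equal list length 165 regions had a peak in both ACSS2i libraries and none in DMSO, where the share over all regions with no DMSO peak was 13.8%. Both regions of the full lists lay in C1QTNF3, which encodes a secreted adipokine, on chromosome 5 at 34182010 to 34182216 and 34191273 to 34191808. The stronger of them had folds of 3.12 and 2.95 in ACSS2i, below the medians of these libraries, and was listed in neither DMSO library.

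In absent share and width, deep intragenic regions were nearer to regions between genes than to gene ends. Beside their absent share of 37.5% stood 40.2% for regions between genes, 39.0% for regions inside genes but within 10000 bp of an end, and 20.7% for gene ends, which are regions within 1000 bp of an end. Deep intragenic regions had a median width of 488 bp, against 446 bp between genes and 1050 bp at gene ends. Each ACSS2i library showed the same order for gene ends: replicates 1 and 2 kept 42.8% and 56.6% of the deep intragenic regions of both DMSO libraries and 60.1% and 75% of the gene ends. Regions between genes were kept at 41.4% and 53.9%. At equal list length the absent share was 7.31% for deep intragenic regions, 7.27% for regions between genes and 5.05% for gene ends.

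The strength of a peak was taken as the percentile of its −log10 q within its library. Median strength of deep intragenic regions was 52.1 and 49.8 in ACSS2i and 46.9 and 44.2 in DMSO. Gene ends were stronger in all 4 libraries: deep intragenic regions minus gene ends gave -1.47 and -8.15 points in ACSS2i and -16.2 and -29.1 points in DMSO, with a mean of -13.7 points. An exact sign-flip permutation test over the 4 libraries gave p = 0.13, the smallest 4 libraries allow. Against regions between genes they lay 1.73 and 4.01 points higher in ACSS2i and 1.62 and 2.01 points higher in DMSO (mean 2.34, exact sign-flip permutation p = 0.13). Against all other regions the difference was 0.14 and -2.23 points in ACSS2i and -5.73 and -9.04 points in DMSO, positive in 1 of 4 libraries (mean -4.22, exact sign-flip permutation p = 0.25).

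The absent share followed DMSO strength steeply. Strength in DMSO was the lower of the percentiles of the 2 DMSO libraries, and all regions of both libraries were cut into 4 quartiles. From the weakest to the strongest quartile, 76.4%, 45.3%, 16% and 1.26% of deep intragenic regions had no ACSS2i peak. Gene ends gave 66.6%, 34.4%, 8.43% and 0.557% in the same order, lower in each quartile, and regions between genes gave 78.2%, 48.9%, 17.7% and 1.13%. In the strongest quartile 24 of 1898 deep intragenic regions were absent from ACSS2i, and 91.0% were in all 4 libraries.

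**Figure D2:**
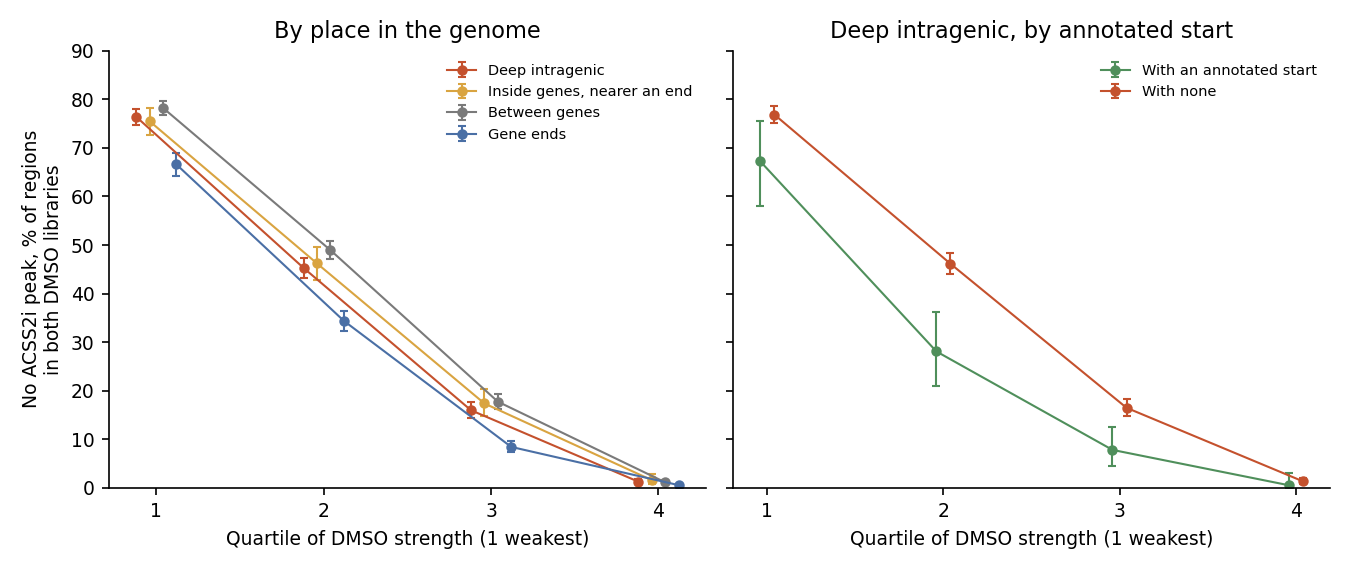
Share of the regions listed in both DMSO libraries that had no ACSS2i peak (y axis, %, with exact 95% intervals for counting error) by quartile of DMSO strength, for 4 places in the genome (left) and for deep intragenic regions with or without an annotated start (right). In each quartile deep intragenic regions lie above gene ends, and regions with a start (67.2%, 28.1%, 7.81% and 0.543%) lie below those with none (76.8%, 46.1%, 16.5% and 1.36%).

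Fold enrichment differed between the groups at sites called everywhere. In the 3250 deep intragenic regions of all 4 libraries, the median fold was 4.92 and 4.97 in ACSS2i and 6.86 and 9.79 in DMSO, a ratio of the means of 0.594 with no overlap between the groups (exact permutation p = 0.33). Over all deep intragenic regions of each list the median fold was 4.71 and 4.32 in ACSS2i and 5.23 and 6.42 in DMSO. Other places in the genome showed the same order. Gene ends had 4.82 and 4.56 in ACSS2i and 5.99 and 8.48 in DMSO, and regions between genes 4.66 and 4.17 against 5.20 and 6.24. Fold is measured against the background of the same library and was used to describe peaks, and the part of library background in this difference was not tested.

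The strongest sites of all 4 libraries lay in genes of varied function. ESYT2, which encodes a protein tethering the endoplasmic reticulum to the plasma membrane, held the strongest site on chromosome 7 (158818330 to 158819173), with folds of 10.6 and 10.4 in ACSS2i and 10.4 and 14.1 in DMSO. AZIN2, an antizyme inhibitor of polyamine metabolism, followed on chromosome 1 (33099052 to 33099924) with 12 and 9.75 in ACSS2i and 10.3 and 13.5 in DMSO. SVIL, which encodes the actin and membrane linker supervillin, held the next on chromosome 10 (29658918 to 29660141) with 11.6 and 10.4 in ACSS2i and 11 and 15.9 in DMSO. The groups overlapped at ESYT2, AZIN2 and SVIL, and DMSO replicate 2 was the highest at all of these sites. Sites in BCAR1, an adaptor of integrin signalling, RTEL1, a helicase of telomere maintenance, ZMIZ1, a transcriptional coregulator, RBKS, ribokinase, and DENND3, a Rab exchange factor, completed the 8 strongest. The lowest percentile of any of the 8 in any library was 99.5, at DENND3.

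The strongest sites of DMSO that no ACSS2i list held ranked lower. The first lay in CSNK1G1, a casein kinase, on chromosome 15 (64232174 to 64233124), with folds of 9.63 and 14.7 in DMSO and percentiles of at least 90.1. The others were in GRM8, a metabotropic glutamate receptor (8.64 and 12.7 in DMSO), in ENAH, an actin regulator (8.26 and 12.3), and in PREX1, a Rac exchange factor (7.92 and 9.96). TOX, a nuclear factor of T cell development, RCAN3, a calcineurin regulator, MAB21L3 and MCC followed, the last with the start shown above. The site in MCC was the weakest of these 8, at percentile 81.0 or higher in both DMSO libraries.

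Annotated starts set apart a small group of deep intragenic regions. The 773 with a start were wider than the 14916 without one, with medians of 1006 and 471 bp. Of 644 with a start and a peak in both DMSO libraries, 139 (21.6%, 18.5 to 25%) had no ACSS2i peak and 50.8% were in all 4 libraries. Of 7788 without a start, 3020 (38.8%, 37.7 to 39.9%) had none and 35.8% were in all 4. ACSS2i replicates 1 and 2 kept 55.9% and 73.3% of those with a start and 41.7% and 55.3% of those without. Those with a start were stronger by 0.72 and 8.69 percentile points in ACSS2i and by 13.3 and 27.3 points in DMSO, 4 of 4 libraries (mean 12.5, exact sign-flip permutation p = 0.13). Their absent share was lower in each quartile of DMSO strength, though the intervals overlapped in the weakest and the strongest. They were also wider in each quartile, with medians from 848 to 1309.5 bp against 546 to 988 bp. The part of width was not tested. Regions with a non-coding start alone had an absent share of 21.9% (25 of 114) and those with a protein-coding start 21.5% (114 of 530).

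The windows of 1025 starts inside deep intragenic regions were compared with all 35097 windows of the table, of the same length. The 35097 include the 1025 and were taken whether or not a peak covers them. Accessible starts at gene ends were not compared separately. Whether a difference is particular to starts deep inside genes was therefore not tested. Matches to different motifs can share bases, so their shares are not additive. The AP-1 letters, which read the same on both strands, were in 14.7% of the windows inside these regions and in 7.71% of all windows. The GC box was in 54.0% and 44.9%, the TEAD letters in 15.7% and 14.0%, the ETS letters in 18.3% and 17.3%, and ACGTG in 21.9% and 21.4%. The windows inside these regions had a median of 63% G and C and all windows 58.7%, so base composition differed too, and its part was not tested. A match is a description of the sequence and not a bound site.

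Hairpins of microRNAs, which are cut from longer transcripts and repress mRNAs through the seed at bases 2 to 8 of the mature strand, lay in 18 deep intragenic regions. Of the 13 listed in both DMSO libraries, 9 had a peak in all 4 libraries, 3 in a single ACSS2i library and 1 in neither. Over all deep intragenic regions 37.0% were in all 4 and 37.5% in neither ACSS2i library, and over all regions 42.2% and 33.5%. The hairpin region absent from ACSS2i holds MIR152 inside COPZ2, a coatomer subunit gene, on chromosome 17 (48037051 to 48037833), with folds of 6.18 and 7.61 in DMSO. The strongest by its lower ACSS2i fold holds MIR6090 inside ETS1, an ETS family factor, on chromosome 11 (128521792 to 128522951), with folds of 7.46 and 7.09 in ACSS2i and 6.96 and 11 in DMSO, where the groups overlapped. Their mature sequences from RefSeq are given with the seed in capitals, because these are the products nearest to the site absent from ACSS2i and to the strongest shared one.
hsa-miR-152-3p: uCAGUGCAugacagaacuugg
hsa-miR-152-5p: aGGUUCUGugauacacuccgacu
hsa-miR-6090: gGGGAGCGaggggcggggc

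Of 20033 protein-coding genes, 10808 have any span more than 10000 bp from every gene end, here called eligible span, and 4995 of these held a deep intragenic region. The median among those was 2 regions. A single region was found in 2009 genes, 2 to 9 in 2672 genes, and 10 or more in 314 genes, which together held 4636 regions (28.2%). The number of genes with 10 or more was 140 without DMSO replicate 2, the longest list, and 54 at equal list length. Regions of the same gene were often close: the median distance between neighbours was 13.6 kb, and 20.8% of neighbours were under 5 kb apart.

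The 15 genes with the most regions had varied functions. KAZN, which encodes the junction-associated protein kazrin (chromosome 1, 13892824 to 15118043), held 34 regions, with 9 and 11 present in ACSS2i and 17 and 34 in DMSO. RAD51B, a recombination repair gene (chromosome 14, 67819779 to 68683096), held 33, with 4 and 8 in ACSS2i and 20 and 33 in DMSO. FOXP1, a forkhead repressor, held 32, with 7 and 9 in ACSS2i and 16 and 30 in DMSO, and LPP, a focal adhesion protein, held 30, with 9 and 11 in ACSS2i and 17 and 28 in DMSO. In all 4 genes both ACSS2i libraries held fewer regions than either DMSO library. The same held over all deep intragenic regions, with 3947 and 5652 in ACSS2i against 9590 and 15236 in DMSO. The ranking counts regions of the merged lists, to which the longer DMSO lists add the most. EXT1, a polymerase of heparan sulfate (chromosome 8, 117794490 to 118111826), held 30 in a much shorter span, or 10.1 per 100 kb of eligible span, with 13 and 14 in ACSS2i and 20 and 30 in DMSO.

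The other 10 of the 15 genes were TENM3 (29 regions), TENM2 (28), IQCJ-SCHIP1 (28), GLIS3 (28), TRIO (27), PARD3 (27), BABAM2 (26), AFF3 (26), SCHIP1 (26) and TNIK (26). SCHIP1 lies inside the readthrough gene IQCJ-SCHIP1, so most of their regions are the same. TENM3 and TENM2 encode teneurins, adhesion receptors of neurons, GLIS3 a zinc finger factor needed in kidney and pancreas, TRIO an exchange factor for small GTPases, PARD3 a scaffold of cell polarity, and TNIK a kinase of Wnt signalling. Over the 15 genes 36.2% of the regions of both DMSO libraries were absent from ACSS2i, close to the 37.5% over all deep intragenic regions. Without DMSO replicate 1 it was 61.2%, and without ACSS2i replicate 2 it was 58.3%. At equal list length it was 3.90%, beside 7.31% of all deep intragenic regions.

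**Figure D3:**
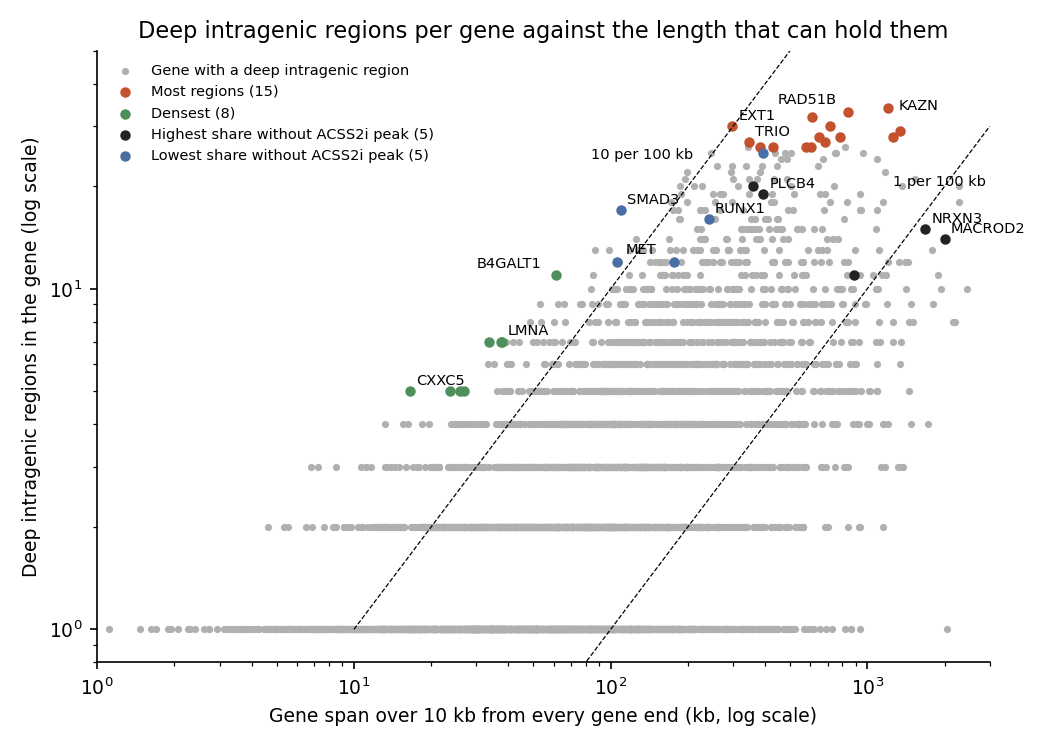
Number of deep intragenic regions per gene (y axis, log scale) against the gene's span that lies over 10 kb from every gene end (x axis, kb, log scale), with dashed lines at 1 and 10 regions per 100 kb and coloured points for genes named by the rule. KAZN has the most regions (34), CXXC5 the most per length (30.2 per 100 kb among genes with at least 5), and MACROD2 and NRXN3 lie under 1 per 100 kb.

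Per length, shorter genes came first among genes with at least 5 regions, the only ones ranked. CXXC5, a CXXC zinc finger gene (chromosome 5, 139647299 to 139683882), had 30.2 per 100 kb of eligible span. It had 2 regions in each ACSS2i library and 3 and 5 in the DMSO libraries. CREB3L1, a membrane-anchored transcription factor, had 21.1 per 100 kb, ZDHHC7, a palmitoyltransferase, 20.9, and ADGRG1, an adhesion receptor, 19.4. LMNA, which encodes lamins A and C, had 18.7, HDAC5, a class IIa histone deacetylase, 18.6, TNIP1, an inhibitor of NF-kB signalling, 18.5, and B4GALT1, a galactosyltransferase, 18.0. Over all genes with eligible span the density was 1.69 regions per 100 kb.

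Genes differed in how many of their regions were absent from ACSS2i. In 165 genes with at least 8 regions of both DMSO libraries, the absent share had a median of 30.8%, with a 10th percentile of 12.5% and a 90th of 54.5%. The genes at the 2 extremes were chosen by this share, so their counts are a description with no test. ASAP2, MET, SMAD3 and RUNX1 had no absent region, and PALLD had 1 of 13. PLCB4 had 8 of 9 absent, MACROD2 7 of 8, SUGCT 6 of 8, THRB 6 of 9 and NRXN3 6 of 9.

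SMAD3, the transcription factor that carries TGF-beta signals (chromosome 15, 67065602 to 67195169), held 17 regions, 13 in each ACSS2i library and 15 and 16 in the DMSO libraries. Of its 14 regions of both DMSO libraries, 12 were in all 4, where 1.81 would be absent if its regions were absent as often as all deep intragenic regions of the same decile of DMSO strength. At 68.7 kb from the 5′ end the folds were 7.08 and 6.54 in ACSS2i and 8.98 and 11.9 in DMSO, and at 79.3 kb they were 7.57 and 6.61 in ACSS2i and 6.08 and 7.30 in DMSO. The groups overlapped at 79.3 kb and did not at 68.7 kb. Of its 11 regions of both DMSO libraries at equal list length 0 were absent, beside 7.31% of all deep intragenic regions.

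MET, the receptor of hepatocyte growth factor (chromosome 7, 116672196 to 116798377), held 12 regions, with 5 and 7 in ACSS2i and 9 and 11 in DMSO. Its strongest region lay 44.5 kb from the 5′ end, with folds of 7.90 and 9.11 in ACSS2i and 9.87 and 15.3 in DMSO, the ACSS2i values being below both DMSO values. RUNX1, a Runt family factor (chromosome 21, 34787801 to 35049302), held 16 regions, with 6 and 7 in ACSS2i and 9 and 16 in DMSO. Of its 9 regions of both DMSO libraries 4 were in all 4, and 2.68 would be absent at the rate of the same strength. ASAP2, an ARF GTPase activator, had 6 of 8 in all 4, and PALLD, the actin crosslinker palladin, 5 of 13. Leaving out 1 library changed these counts: without DMSO replicate 1 the absent share was 17.6% in SMAD3, 27.3% in MET, 33.3% in ASAP2, 43.8% in RUNX1 and 48.0% in PALLD, and without ACSS2i replicate 2 it was 7.14% in SMAD3, 37.5% in MET, 25% in ASAP2, 33.3% in RUNX1 and 46.2% in PALLD. Without ACSS2i replicate 1 it was 12.5% in MET, 22.2% in RUNX1 and 23.1% in PALLD. Without DMSO replicate 2 it was 11.1% in MET and 14.3% in PALLD. When peaks had to cover a larger part of the region, it was 75% in PALLD and 25% in RUNX1. Under that rule SMAD3 and MET each had 14.3% and ASAP2 12.5%. At −log10 q of at least 5 it was 37.5% in RUNX1, 33.3% in PALLD and 25% in MET. SMAD3 had 14.3% and ASAP2 12.5% at that threshold. The low share in PALLD thus also depended on the overlap rule.

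THRB, the beta receptor of thyroid hormone (chromosome 3, 24117153 to 24495708), held 20 regions, with 3 in each ACSS2i library and 9 and 20 in the DMSO libraries. Its site 339 kb from the 5′ end was in all 4, with folds of 6.74 and 6.20 in ACSS2i and 7.02 and 13.8 in DMSO. Its site at 275 kb, with folds of 8.38 and 8.35 in DMSO, and its site at 241 kb, with 6.55 and 10.7 in DMSO, were in no ACSS2i list. Of its 9 regions of both DMSO libraries 4.07 would be absent at the rate of the same strength, against the 6 counted. PLCB4, a phospholipase C, would have 6.14 against 8, MACROD2, an ADP-ribose hydrolase gene with a span of 2058 kb, 5.27 against 7, SUGCT, a CoA transferase, 4.38 against 6, and NRXN3, a neurexin of synapses, 4.89 against 6. The median DMSO strength of regions was percentile 17.9 in PLCB4, 20.6 in MACROD2 and 19.4 in NRXN3, against 71.3 in SMAD3 and 64.1 in MET. None of the regions of THRB, MACROD2, SUGCT and NRXN3 in both DMSO lists was absent at equal list length, out of 2, 1, 1 and 3. Over all deep intragenic regions 7.31% were absent at that length.

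**Figure D4:**
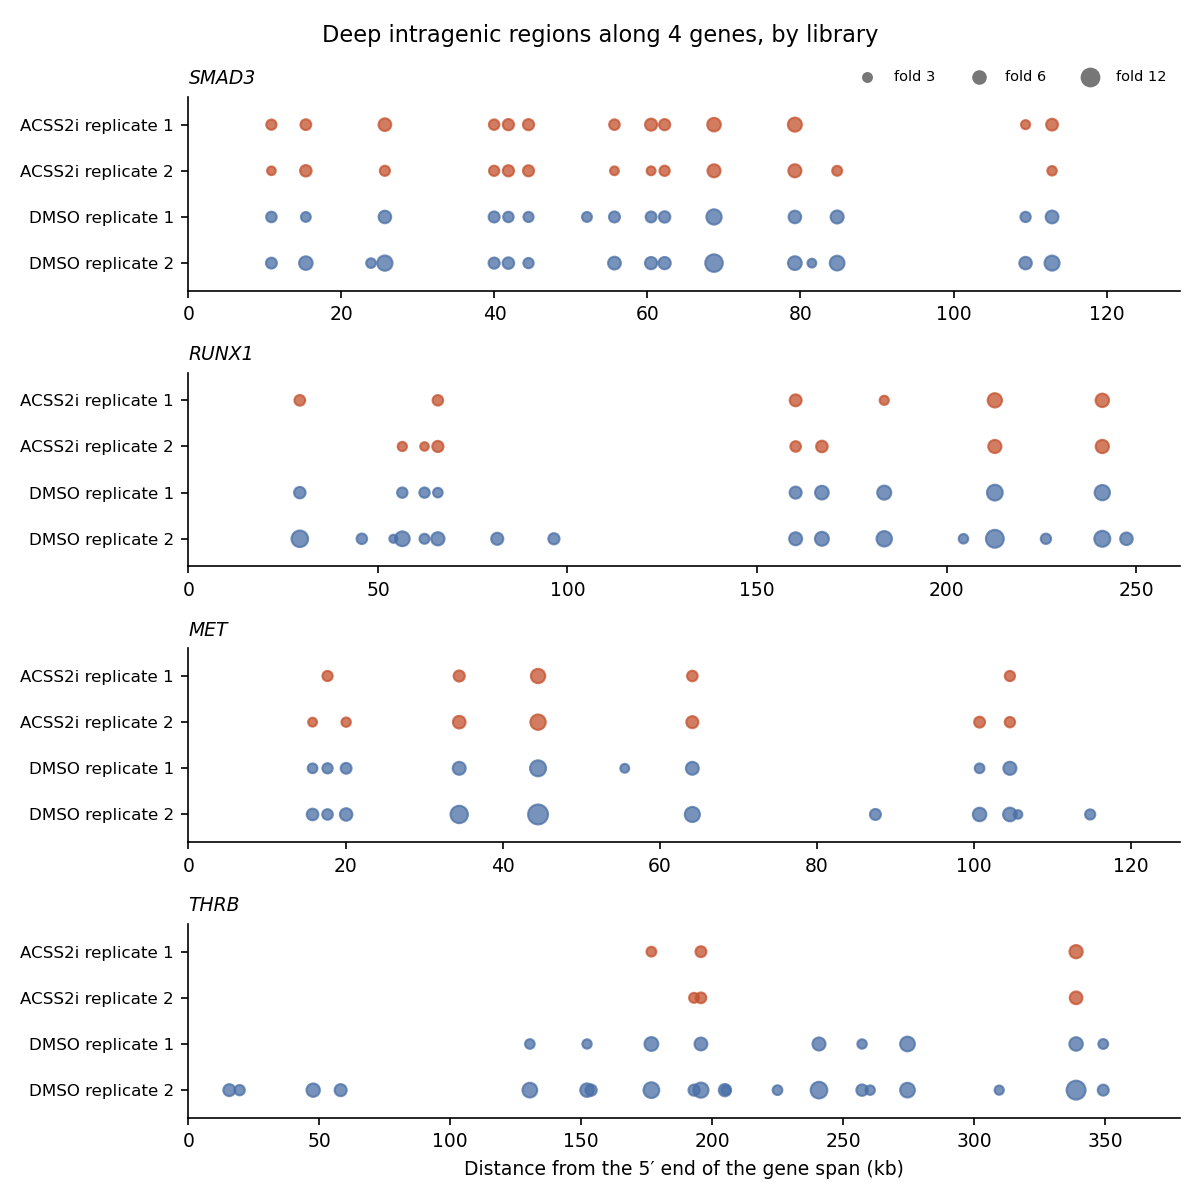
Deep intragenic regions along SMAD3, RUNX1, MET and THRB, by distance from the 5′ end of the gene span (x axis, kb), with 1 line per library (ACSS2i red, DMSO blue) and point area in proportion to fold enrichment. SMAD3 has 13 points in each ACSS2i line and 15 and 16 in the DMSO lines, and THRB has 3 in each ACSS2i line and 9 and 20 in the DMSO lines.

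Among the genes with the most regions, RAD51B had the highest absent share, 12 of 20 or 60.0%, where 7.94 would be absent at the same strength. At equal list length 2 of its 6 regions were absent, beside 7.31% of all deep intragenic regions. TENM3 had 10 of 17 (58.8%) and PARD3 8 of 17 (47.1%). TRIO had 4 of 18 absent and 13 in all 4, the most of the 15 genes, and its strongest site had folds of 7.64 and 8.49 in ACSS2i and 7.88 and 10.8 in DMSO, with overlapping groups. GLIS3 had 5 of 21 absent, with 6 and 16 regions present in the ACSS2i libraries and 22 and 27 in the DMSO libraries, and its absent share was 71.4% without ACSS2i replicate 2 and 40.7% without DMSO replicate 1. Without DMSO replicate 1 it was also 61.8% in KAZN, 66.7% in FOXP1, 57.1% in LPP, 50% in EXT1, 40% in TRIO and 54.2% in BABAM2.

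**Figure D5:**
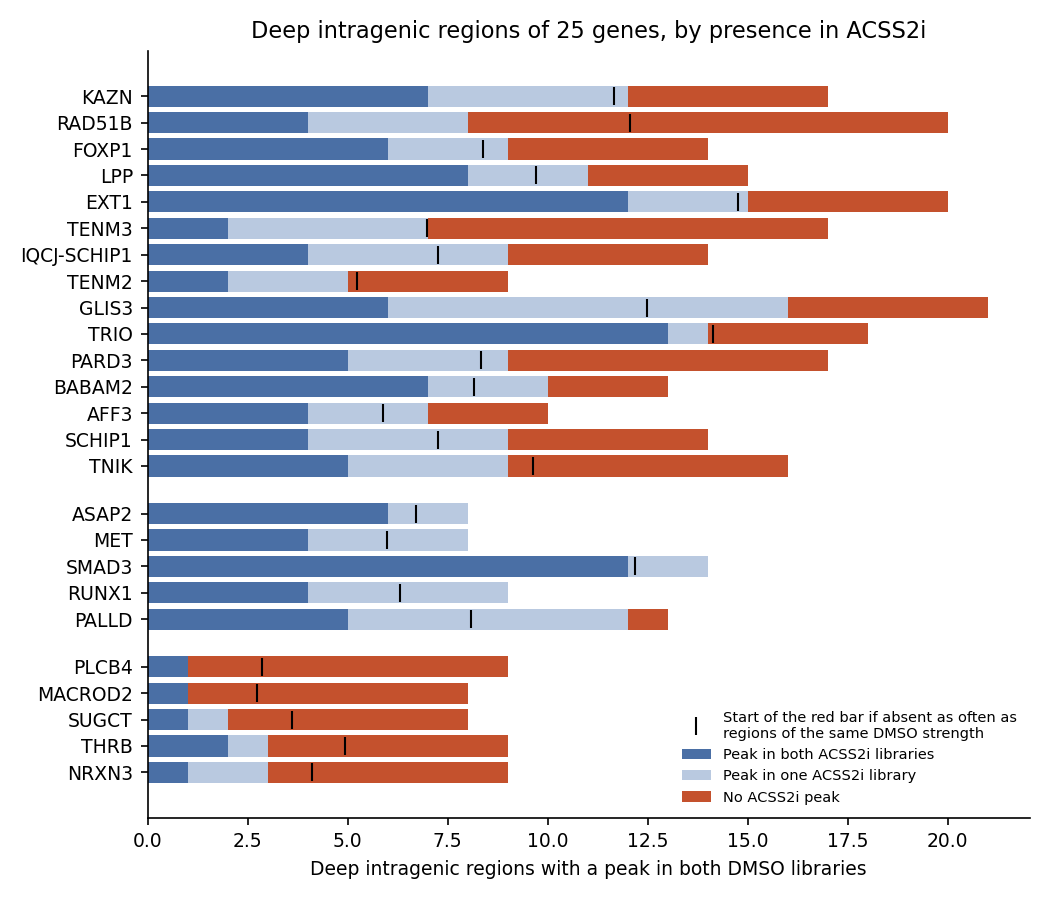
Deep intragenic regions with a peak in both DMSO libraries (x axis, count) in the 15 genes with the most regions and in the genes with the lowest and highest absent share, split by peaks in ACSS2i, with a tick where the red part would begin at the rate of regions of the same DMSO strength. SMAD3 has 12 of 14 in both ACSS2i libraries and none absent, RAD51B has 12 of 20 absent, and PLCB4 has 8 of 9 absent.

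Lists of genes were then compared by role, each by counts beside the 37.5% of all deep intragenic regions. Among the 12 lists, the lowest absent share was that of growth factor receptors and their signalling, 22 of 89 regions or 24.7% (16.2 to 35%), with 19 of 26 genes holding a region and 50 and 74 regions in ACSS2i against 96 and 147 in DMSO. At the same strength 28.1 of the 89 would be absent, a share that lies inside this interval. EGFR, the epidermal growth factor receptor, held 18 regions, with 9 and 11 in ACSS2i and 11 and 18 in DMSO, and 9 of its 11 regions of both DMSO libraries were in all 4. Its strongest site, on chromosome 7 (55185514 to 55186923), had folds of 8.34 and 7.36 in ACSS2i and 9.66 and 10.6 in DMSO. PRKCE, a protein kinase C, had 2 of 12 absent and PRKCA, another, 3 of 12, whereas IGF1R, the receptor of insulin-like growth factor, had 6 of 11 absent. SMAD3 and MET, described above, belong to this list and contribute 14 and 8 of its 89 regions, with none absent.

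Integrin, adhesion and actin genes had the highest density, 5.09 regions per 100 kb, with 75 and 92 regions in ACSS2i and 148 and 227 in DMSO. Their absent share was 29.7% (41 of 138), where 50 would be absent at the same strength. MYO1E, an unconventional myosin, had 4 of 11 absent, and TLN2, a talin that links integrins to actin, 6 of 13. LPP, described above, had 4 of 15 and PALLD 1 of 13.

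HIF and hypoxia genes, whose activity was not measured here, held 75 regions in 13 of 30 genes, at 4.81 per 100 kb. Regions present numbered 26 and 35 in ACSS2i and 55 and 69 in DMSO. Of 50 regions of both DMSO libraries 15 (30.0%, 17.9 to 44.6%) were absent, and 14.8 would be at the same strength. PFKFB3, which encodes an activator of glycolysis, had 11 regions, with 6 and 9 in ACSS2i and all 11 in each DMSO library, and 2 of 11 absent. LOXL2, a lysyl oxidase-like enzyme of the matrix, kept all 5 of its regions of both DMSO libraries in all 4. NRP1, a coreceptor of VEGF, had 3 of 8 absent and KDM4C, a histone demethylase, 2 of 4.

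EPAS1 and ACSS2 are named for the subject of the series and not by the rule. EPAS1, which encodes HIF-2 alpha, held 5 regions. The site at 46315145 to 46315870 of chromosome 2 was in all 4 libraries, with folds of 8.39 and 7.33 in ACSS2i and 9.01 and 9.25 in DMSO, and stood at percentiles 97.2 and 95.5 in ACSS2i and 96.7 and 86.7 in DMSO. Of its other sites, 46325317 to 46325641 had folds of 5.90 and 8.41 in DMSO and 46331762 to 46332130 had 3.14 and 5.05 in DMSO, and neither was listed in ACSS2i. The site at 46329890 to 46330474 had folds of 3.20 in ACSS2i replicate 2 and 5.21 and 4.43 in DMSO, and the site at 46311195 to 46311387 was listed in DMSO replicate 2 alone. The single region in ACSS2, on chromosome 20 (34907630 to 34908170), had folds of 3.86 and 10.2 in DMSO and was listed in no ACSS2i library.

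Genes of acetyl-CoA supply and histone acetylation held 68 regions in 18 of 32 genes, with 17 and 26 in ACSS2i and 37 and 64 in DMSO. Of 35 regions of both DMSO libraries 11 (31.4%, 16.9 to 49.3%) were absent, and 12 would be at the same strength. The deacetylase genes HDAC9 and HDAC4 had 2 of 4 and 1 of 4 absent, and the coactivator genes NCOA2 and NCOA3 had 1 of 3 and 0 of 5. The strongest site of HDAC4 had folds of 8.32 and 6.40 in ACSS2i and 7.56 and 12.6 in DMSO, with overlapping groups.

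Hippo pathway genes had 22 of 61 absent (36.1%), where 19.2 would be at the same strength, with 30 and 42 regions in ACSS2i and 62 and 102 in DMSO. WWTR1, the coactivator TAZ, held 19 regions and had 1 of 8 absent, and TEAD1, its DNA-binding partner, held 19 and had 5 of 10 absent. PTPN14, a phosphatase of the pathway, had 2 of 10 absent and WWC1, the upstream protein KIBRA, 2 of 9. Long transcription factor genes had 50 of 136 absent (36.8%), where 55.9 would be at the same strength, with FOXP1 at 5 of 14, MAML2, a Notch coactivator, at 4 of 9, ETV6, an ETS repressor, at 3 of 8 and CUX1, a homeobox factor, at 4 of 11. Matrix and mesenchymal genes had 17 of 44 absent (38.6%), where 15.8 would be at the same strength, with COL4A2, a basement membrane collagen, at 2 of 14 and LAMC1, a laminin, at 3 of 5, while LTBP1 and FBN2, proteins of matrix microfibrils, had 1 of 4 and 2 of 3.

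Kidney lineage and tubule genes had 19 of 55 absent (34.5%), where 20.6 would be at the same strength, with 19 and 40 regions in ACSS2i and 60 and 82 in DMSO. CUBN, the cubilin receptor of the proximal tubule, held 13 regions and had 2 of 11 absent, and its strongest site had folds of 6.60 and 6.11 in ACSS2i and 9.43 and 10.6 in DMSO. BICC1, an RNA-binding protein linked to cystic kidney disease, had 1 of 6 absent, and MECOM, a zinc finger factor of the nephron, 4 of 5. PAX8, the renal lineage factor used as a marker of this tumour type, held a site on chromosome 2 (113240237 to 113242437) in all 4 libraries with folds of 9.18 and 6.91 in ACSS2i and 9.36 and 11 in DMSO, at percentile 99.1 or higher in each. PAX8 was named for its role as a marker, outside the rule.

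Of the 3 lists of other cell types, the neuronal and immune lists had fewer regions per 100 kb of eligible span than the 1.69 over all genes, and the endothelial and stromal list had 1.73. Neuronal and synaptic long genes held 202 regions over all 22 genes, or 0.65 per 100 kb, with 30 and 66 in ACSS2i and 87 and 153 in DMSO. Their absent share was 50.7% (37 of 73, 38.7 to 62.6%), where 32.3 would be absent at the same strength. Over all genes with a span over 1 Mb the density was 0.726 per 100 kb and the absent share 51.3%. The part of gene length in the values of this list was not tested. PTPRD, a receptor phosphatase, had 4 of 7 absent, CNTNAP2, a neurexin relative, 3 of 5, and DLGAP1, a synaptic scaffold, 2 of 12. Immune genes held 35 regions in 11 of 18 genes, or 1.09 per 100 kb, and had 8 of 17 absent (47.1%), where 5.66 would be at the same strength, with 5 and 10 regions in ACSS2i and 20 and 30 in DMSO. Among them DOCK2, a Rac exchange factor of leukocytes, had 1 of 5 absent, SKAP1, a T cell adaptor, 1 of 4, ARHGAP15 1 of 1 and ELMO1 0 of 1. The immune genes IKZF1, SYK, LCP2, THEMIS, ITGAM and PRKCB have eligible span and held no region, while CD74 has no eligible span.

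Endothelial and stromal genes held 22 regions in 11 of 19 genes and had 5 of 10 absent, where 3.35 would be at the same strength, with 5 and 6 regions in ACSS2i and 12 and 20 in DMSO. RGS5, a pericyte marker, held 7 regions with 2 of 2 absent, TEK, an angiopoietin receptor, had 1 of 1 and PDGFRB, a receptor of mural cells, 0 of 1, and PTPRB held no region of both DMSO libraries. KDR, FLT1, TIE1, PLVAP, DCN and ANPEP have eligible span and held no region, though that of TIE1, PLVAP and ANPEP is under 10 kb each, and LUM and MCAM have no eligible span. The part of other cells in these counts was not tested.

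Common fragile site genes, very long genes that break under replication stress, held 172 regions in all 18 genes, or 0.71 per 100 kb, with 24 and 52 in ACSS2i and 82 and 149 in DMSO. Of 76 regions of both DMSO libraries 38 were absent (50%, 38.3 to 61.7%), and 33.5 would be at the same strength. Both the density and the absent share lay near those of all genes over 1 Mb, 0.726 per 100 kb and 51.3%. WWOX, an oxidoreductase, had 4 of 6 absent, with 0 and 3 regions present in ACSS2i and 7 and 13 in DMSO, and CTNNA3, an alpha catenin, 1 of 6. The fragile site list shares 4 genes with the neuronal list. The fragile site genes had 2 of 20 absent and the neuronal genes 4 of 21 at equal list length. Over all deep intragenic regions 7.31% were absent at that length, and over all regions of the series 6.41%.

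Gene length was compared over all deep intragenic regions. Regions in genes under 50 kb had an absent share of 35.2%, those in genes of 50 to 100 kb 36.7%, 100 to 200 kb 36.2%, 200 to 500 kb 37.7%, 500 kb to 1 Mb 39.8%, and over 1 Mb 51.3% (138 of 269, 45.2 to 57.4%). Density pooled over genes ran the other way, at 2.2 regions per 100 kb of eligible span under 50 kb and 0.726 over 1 Mb. The median density per gene did not, at 0 under 50 kb, 1.32 at 50 to 100 kb and 0.606 over 1 Mb. Under 50 kb, 877 of 4542 genes with eligible span held a region. Median DMSO strength was percentile 51.9 in the shortest class and 37.8 in the longest, and at the same strength 45.0% would be absent in genes over 1 Mb. Within quartiles of strength, genes over 1 Mb had 84.9%, 59.8%, 13.2% and 0% absent from the weakest to the strongest, the last 0 of 36 regions, against 75.2%, 43.0%, 16.1% and 1.91% for genes of 200 to 500 kb.

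Position along the gene was read from the 5′ end. The 5′ end could be read for 13788 of 16653 pairs of region and gene, whose strand the promoter table gives, and 52.7% of these regions lay nearer the 5′ than the 3′ end. Density was 2.30 per 100 kb at 10 to 20 kb from the 5′ end, 1.85 at 50 to 100 kb and 1.05 beyond 500 kb, and from the 3′ end it was 1.75, 1.97 and 0.797 at the same distances. The absent share was 37.4% at 10 to 20 kb from the 5′ end, 35.5% at 50 to 100 kb and 45.3% beyond 500 kb. Of the regions 10 to 20 kb from the 5′ end 8.52% held an annotated start. The median distance to the nearest gene end was 42.7 kb. At the 10000 bp limit of the rule, 469 regions just inside it (10 to 11 kb from the nearest end) had an absent share of 36.4%, and 462 regions just outside (9 to 10 kb) had 40.6%.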

How the data were processed

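ATAC-seq peak lists of 786-O cells were used, 2 libraries treated with 5 µM ACSS2i and 2 with DMSO for 24 h, grouped by the treatment in the labels. Per the labels' protocols, Tn5 acted on nuclei for 30 min and both ends of fragments were sequenced over 150 bases. On the build hg38, the submitters' processing notes list MACS2 2.1.2 among peak tools, Bowtie2, Trimmomatic 0.38, Picard 2.18.26 and SAMtools 1.9 among read tools, and also bedtools, bcl2fastq 2.17, DiffBind and deepTools 3.5.0, without their roles. How peaks were called and filtered, whether cut sites were shifted and how duplicates were handled rests on settings not given in the sources used here.

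Among the deposited columns, fold is the ratio by which the summit exceeds the local background of its own library, from the authors' peak caller. The authors' −log10 p-value and −log10 q-value of each summit were also deposited, and no −log10 q was below 2. The deposited score column is 10 times −log10 q in all but a few summits and was used only to check the layout, as was the summit offset in bp deposited by the authors. Peaks were called per library. The lists held 20514 and 29244 summits in ACSS2i and 46692 and 69876 in DMSO, and summits of 1 interval formed 1 peak with the values of the strongest.

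Gene spans and starts came from RefSeq tables of GRCh38.p14, the same build. No genome was used here, so regions were not split into exons and introns, the motif plan for summits was dropped, and motifs were counted in the table's promoter windows. That table is incomplete, and no start means no start in it.

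There is no test per region, since peak lists hold no counts. Groups of libraries were compared by exact permutation or exact sign flips, both two-sided, and intervals are exact Clopper-Pearson at 95%. The expected number absent at the same strength sums, over a gene's or list's regions, the absent share of all deep intragenic regions in their decile of DMSO strength. Genes were named by a rule: the 15 with the most regions, the 8 densest with at least 5 regions, the 5 with the lowest and 5 with the highest absent share among those with at least 8 regions of both DMSO libraries, the 8 strongest regions in all 4 libraries and the 8 strongest absent from ACSS2i, all regions of both ACSS2i libraries alone, and up to 4 genes per list by number of regions. A gene that this rule selects in a list is not reported here. The 12 lists held 307 entries, all matched to the table. The regions and lists were chosen with earlier results of these data known. Merging, classes and presence were tested on simulated data and recovered. Alternatives were a distance of 5000 or 20000 bp, −log10 q of at least 5, equal list length, coverage of at least 50% of the region, the region's midpoint, and leaving out each library. Python 3.11.15, pandas 2.3.3, numpy 2.4.6, scipy 1.17.1 and matplotlib 3.10.9 were used.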

Additional observations from a re-analysis of the deposited data

How the results depend on the processing

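Results for the deep intragenic regions were recomputed with 1 choice changed at a time. The distance of 5000 or 20000 bp and the midpoint rule kept the direction and near size of every summary value. At −log10 q of at least 5, the absent share was 44.3%, the share in all 4 libraries 30.1%, regions of both ACSS2i libraries alone 0, genes with 10 or more regions 202, and the absent share of the 15 genes with the most regions 44.9%. At equal list length the same values were 7.31%, 75.2%, 165, 54 and 3.90%, the share of all regions reversed to 0.612 points, and the ratio of regions per library was 0.996 (exact permutation p = 1). With 50% of the region to be covered they were 56.4%, 17.7%, 1 and 50.5%, the gene count staying at 314. Leaving out each library in turn gave 43.2% to 61.5% absent, 21.3% to 56.7% in all 4, 4 to 346 regions of ACSS2i alone, 140 to 311 genes and 40% to 61.2% in the 15 genes. These settings also change the rule itself. Leaving out an ACSS2i library asks for absence from fewer libraries, and leaving out a DMSO library asks for presence in fewer. A stricter threshold shortens every list. The part of these changes in the moves was not tested, and neither were other causes.

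The replicate numbers could be paired only as 2 pairs. With the replicate number as a block the ratio of regions per library was 0.391, that of fold 0.603 and the difference in share -3.49 points, each with an exact sign-flip permutation p of 0.5, the smallest 2 pairs allow. The difference between replicates 1 and 2 in fold correlated between the groups at r = 0.186 across 3250 regions of all 4 libraries, which are not independent, and the labels do not say that a number marks a shared day or culture. Of 249 absent shares recomputed for 25 genes, 213 stayed within the counting interval and 36 moved. These intervals are wide because each gene has few regions, so staying within them says little about stability. ASAP2, for example, went from 0% to 33.3% without DMSO replicate 1 and was counted among those that stayed. With 2 libraries a group, no p below 0.33 was possible, and depth was not given in the sources used here, so an absent peak says only that none was called.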

Other observations

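The absent share of deep intragenic regions differed between chromosomes. It was 57.7% on chromosome X (90 of 156 regions of both DMSO libraries, 49.5 to 65.6%), 52.3% on chromosome 14 (91 of 174, 44.6 to 59.9%) and 46.1% on chromosome 6 (211 of 458, 41.4 to 50.8%). It was 30.8% on chromosome 7 (154 of 500, 26.8 to 35.1%), which holds MET and EGFR, and 30.0% on chromosome 21 (27 of 90, 20.8 to 40.6%), which holds RUNX1. At the same DMSO strength 51.2% would be absent on chromosome X, 47.2% on chromosome 14, 44.3% on chromosome 6, 31.6% on chromosome 7 and 35.5% on chromosome 21. Regions present on chromosome X numbered 40 and 66 in ACSS2i and 169 and 313 in DMSO, and on chromosome 7 they numbered 253 and 395 in ACSS2i and 549 and 902 in DMSO. The number of copies of each chromosome in these cells was not used here, and its part was not tested.

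Several summits of the library, in the same or separate peaks, lay in 19.7% and 21.9% of the deep intragenic regions in ACSS2i. In DMSO it was 20.9% and 20.6%, so the groups overlapped. In gene ends the shares were 29.7% and 37.7% in ACSS2i and 40.1% and 46.9% in DMSO, without overlap.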
